A study of Populus trichocarpa with 15 samples.

Results

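The peaks described here lie on the chloroplast genome, the plastome, of *Populus trichocarpa* leaf libraries. Every peak whose sequence name was chloroplast was taken from the peak lists of 14 libraries, so membership rested on position and on no measured value. These were 428 of the 385491 peaks in the 14 lists (0.111%). Joining peaks that overlapped or touched across libraries into regions gave 41 chloroplast regions of 55335 regions in all (0.0741%).

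ATAC-seq uses a transposase to insert sequencing adapters into DNA that is not shielded by protein, and a peak is a stretch where more reads fall than the peak caller expects. In the nucleus such stretches are mostly gaps between nucleosomes. The plastome of land plants is a circular molecule, present in many copies per chloroplast, that carries photosynthesis, transcription and translation genes and is packed in protein-rich nucleoids without histones or nucleosomes. A peak on it is therefore a place of unequal read density on plastid DNA and is not nuclear open chromatin. The plastome typically holds a large and a small single-copy region separated by an inverted repeat pair, whose near-identical copies carry the ribosomal RNA genes. Reads from such copies match more than 1 place, and the sources used here do not say how those reads were treated. The nuclear genome of plants also holds copies of plastid DNA, and whether reads from these contributed to any peak was not tested.

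Leaves were taken from the branch tips of wild, untreated trees in Oregon and flash-frozen. Trees 13 and 14 are stems of 1 individual that share a trunk and root system, and gave 5 libraries each (13.1 to 13.5 and 14.1 to 14.5). Tree 4 is another tree of the same stand and gave 4 libraries (4.2 to 4.5). Each library is 1 branch of 1 stem, so every comparison of trees below exchanges branches of these stems only. No p-value below says anything about other trees.

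The 14 lists held 12801 peaks (13.5) to 39694 peaks (14.3), a range of 3.10-fold. Every entry is a peak that passed the caller's threshold, with a start, an end, a score and −log10 p-values and q-values. The lists give no read counts or summits, so the depth behind a peak is unknown, and a region missing from a list is one that was not called. The narrowest peak of a list was between 90 bp (14.4) and 159 bp (13.5). The genome build of the lists is not named, positions are printed as deposited, and no gene was assigned to a position.

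Chloroplast peaks were present in every library in similar numbers. Tree 13 had 28, 33, 34, 34 and 25 chloroplast peaks in branches 1 to 5, tree 14 had 35, 37, 28, 32 and 28, and tree 4 had 25, 27, 32 and 30 in branches 2 to 5. The ranges of the 3 trees overlapped. The number varied 1.48-fold over libraries. The covered length, the number of plastome bases under peaks, was 13393, 12981, 13050, 12800 and 14734 bp in tree 13, 13010, 13247, 12639, 10400 and 11152 bp in tree 14, and 14246, 12814, 13921 and 13204 bp in tree 4. It varied 1.42-fold, while the covered length on the assembled chromosomes varied 2.48-fold. Library 13.5, which had the shortest list, had the largest covered length on the chloroplast, and 14.4 had the smallest.

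The chloroplast share of a list was low throughout. It was 0.0995, 0.0880, 0.134, 0.142 and 0.195% of peaks in tree 13, 0.109, 0.140, 0.0705, 0.103 and 0.132% in tree 14, and 0.0997, 0.136, 0.101 and 0.0979% in tree 4. The highest share was in the shortest list (13.5) and the lowest in the longest (14.3). Across the 14 libraries, the number of chloroplast peaks against the number of chromosome peaks gave r = 0.376 (permutation p = 0.185, adjusted over 2 relations 0.371) and rho = 0.412 (permutation p = 0.144, adjusted 0.288). Without 13.5 and 14.3, the libraries farthest from the median, r was 0.390 (permutation p = 0.209). Without 13.5 alone r was 0.172 (permutation p = 0.572), and without 14.3 alone it was 0.554 (permutation p = 0.0488, adjusted 0.0976). Within trees 13, 14 and 4 r was 0.598, −0.142 and 0.772, over 5, 5 and 4 libraries with no test. No relation was detected for covered length either, where r was −0.0355 (permutation p = 0.904, adjusted 0.904) and rho 0.0505 (permutation p = 0.867, adjusted 0.867). Without the same libraries r was 0.325 (permutation p = 0.312), and within trees 13, 14 and 4 it was −0.579, 0.220 and 0.752. Leaving out 13.5 alone turned it to 0.231, leaving out 14.3 alone to 0.0138, and without 14.5 it was −0.206. With 14 libraries, neither relation with the size of the list passed the threshold of 0.05.

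**Figure D1:**
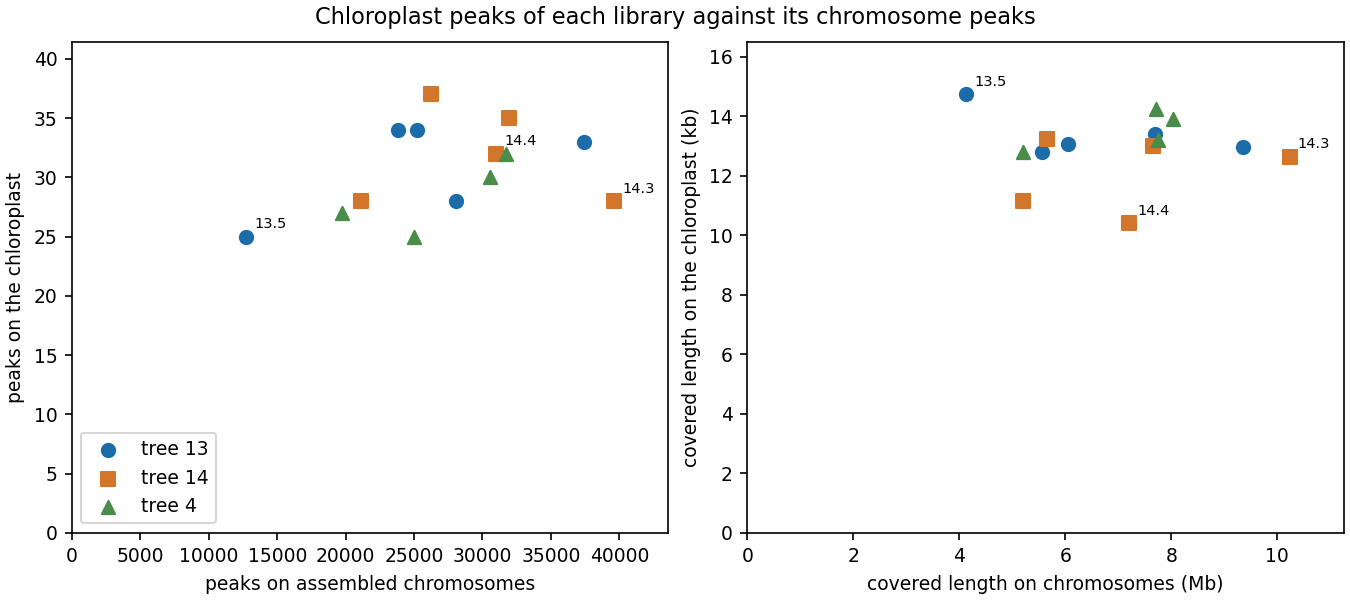
Number of chloroplast peaks against number of chromosome peaks (left) and chloroplast covered length in kb against chromosome covered length in Mb (right), 1 point per library, coloured by tree, with 13.5, 14.3 and 14.4 labelled and both axes from 0. The chloroplast number stays between 25 and 37 while lists range from 12801 to 39694 peaks, and 13.5 has the largest chloroplast length with the smallest chromosome length.

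Chloroplast peaks were few but included some of the most significant peaks of each list. The highest chloroplast −log10 q was 41.7, 38.6, 37.9, 37.0 and 49.2 in tree 13, 34.7, 34.4, 37.9, 28.2 and 35.3 in tree 14, and 39.7, 38.3, 41.0 and 35.4 in tree 4. That peak ranked between 2 (13.5) and 22 (14.3) in its whole list. Each list had 1 to 4 chloroplast peaks among its 100 most significant peaks.

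Peaks covered a small and unevenly placed part of the plastome. The first peak started at position 187 and the last ended at 129426, a span of 129239 bp. Peaks of any library covered 20173 bp of it (15.6% of the span), and 7965 bp (6.16% of the span, 39.5% of the covered bases) lay under a peak in all 14 libraries. Only 2753 bp were covered in 1 library alone. The length of the plastome is not given in the lists, so how much of it lies outside this span is not known from them.

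The longest stretch without a peak in any library ran for 27643 bp, between 85199 and 112842. The next 4 lay between 13546 and 21597 (8051 bp), between 72252 and 78725 (6473 bp), between 36786 and 42794 (6008 bp), and between 28538 and 34272 (5734 bp). A stretch of this kind marks where no peak was called, and whether reads could be placed there was not tested.

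For description, the span was divided into 3 stretches at the longest of these gaps and at the third, between 72252 and 78725. This choice was made after the positions were seen and has no test. The gaps of 8051, 6008 and 5734 bp were not used and lie inside the first stretch, so the shares covered below depend on the choice. The first, from 187 to 72252, was 72065 bp long and held 23 regions and 192 peaks. The second, from 78725 to 85199, was 6474 bp long and held 6 regions and 96 peaks. The third, from 112842 to 129426, was 16584 bp long and held 12 regions and 140 peaks.

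The middle stretch was the most densely covered. Peaks of any library covered 11% of the first stretch, 83.1% of the second and 41.4% of the third. Bases under a peak in all 14 libraries made up 2.67%, 52.6% and 15.9% of these stretches, in the same order. Although the stretches differ in length, each held close to the same part of a library's covered chloroplast bases, at 31.3 ± 2.68%, 33.3 ± 1.65% and 35.5 ± 2.30% (SD, n = 14). In the middle stretch this part ranged only from 30.5% (13.4) to 36.2% (14.5).

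The most significant peaks lay in the first stretch. The median −log10 q of all peaks was 12.3 in the first stretch, 8.66 in the second and 4.70 in the third, and the highest was 49.2, 22.0 and 13.03. The median peak width was 243.5 bp, 463 bp and 265.5 bp. Restricted to the regions called in all 14 libraries, the median over regions of the median peak width was 328 bp in the first stretch (9 regions, 176.5 to 495 bp), 455.5 bp in the second (6 regions, 225 to 1595 bp) and 746.5 bp in the third (5 regions, 165 to 1296 bp). The median −log10 q of the same regions was 20.7 (7.50 to 37.9), 8.78 (4.73 to 17.6) and 5.82 (4.53 to 9.48). Among regions called everywhere, those of the first stretch thus had the lowest median width and the highest median −log10 q.

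**Figure D2:**
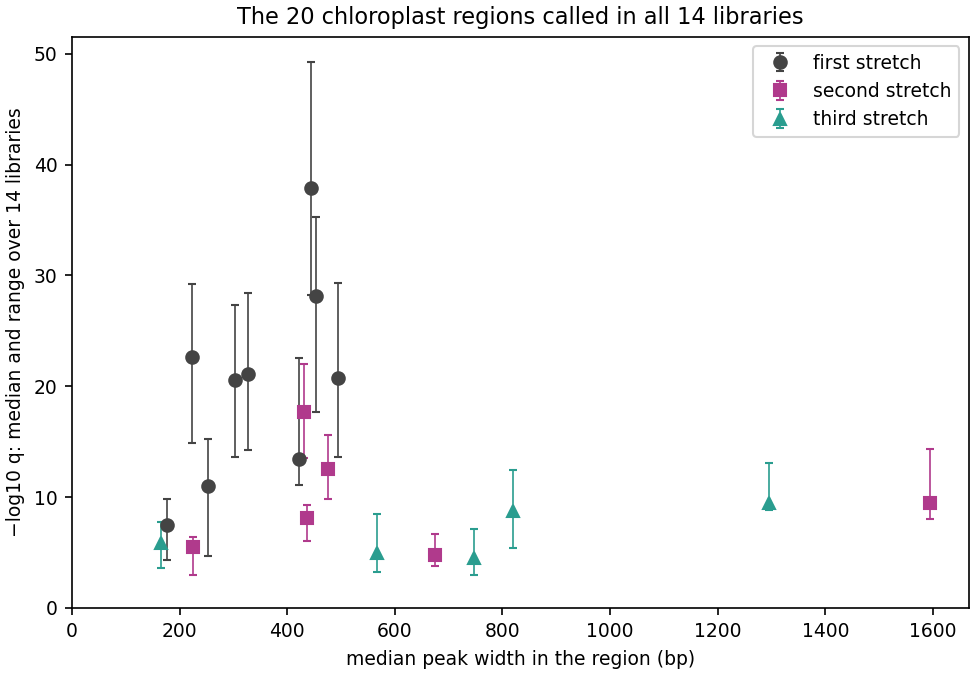
The 20 chloroplast regions called in all 14 libraries, with the median peak width of a region in bp (x axis) against its median −log10 q (y axis), with bars from the lowest to the highest library and symbols by stretch. All regions of the first stretch have a median width of 495 bp or less, and the widest 2 regions, at 1595 and 1296 bp, have a median −log10 q of 9.43 and 9.48.

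In the full lists, regions called in all 14 libraries made up a larger share of the chloroplast regions than of all regions. Of the 41 chloroplast regions, 20 (48.8%) were called in all 14 libraries, against 17.6% of all 55335 regions. They held 310 of the 428 chloroplast peaks (72.4%) and summed to 15763 bp. Each such region holds at least 1 peak of every library, so the definition fixes much of this share of peaks. A further 5 regions (12.2%) were called in 10 to 13 libraries and held 60 peaks, against 18.9% of all regions. In 2 to 9 libraries 13 regions (31.7%) were called and held 55 peaks, against 39.5% of all regions. The other 3 (7.32%) were called in 1 library, against 23.9% of all regions. The median width was 710 bp for the regions called in all 14 and 305 bp for those called in 10 to 13. Over all regions these medians were 484 bp and 342 bp. The shares are set beside those of all regions as a description. The count of 20 became 12 with the most significant 50% of each list, 11 with lists of equal length, 10 where a call needed 50% overlap, 8 with a −log10 q of at least 10, and 36 where 500-bp windows replaced regions. The shares over all regions under these settings are not given. These counts therefore do not show whether the contrast with 17.6% holds there. Of the 20 regions, 9 lay in the first stretch, 6 in the second and 5 in the third, and the second stretch held no region that any library lacked.

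**Figure D3:**
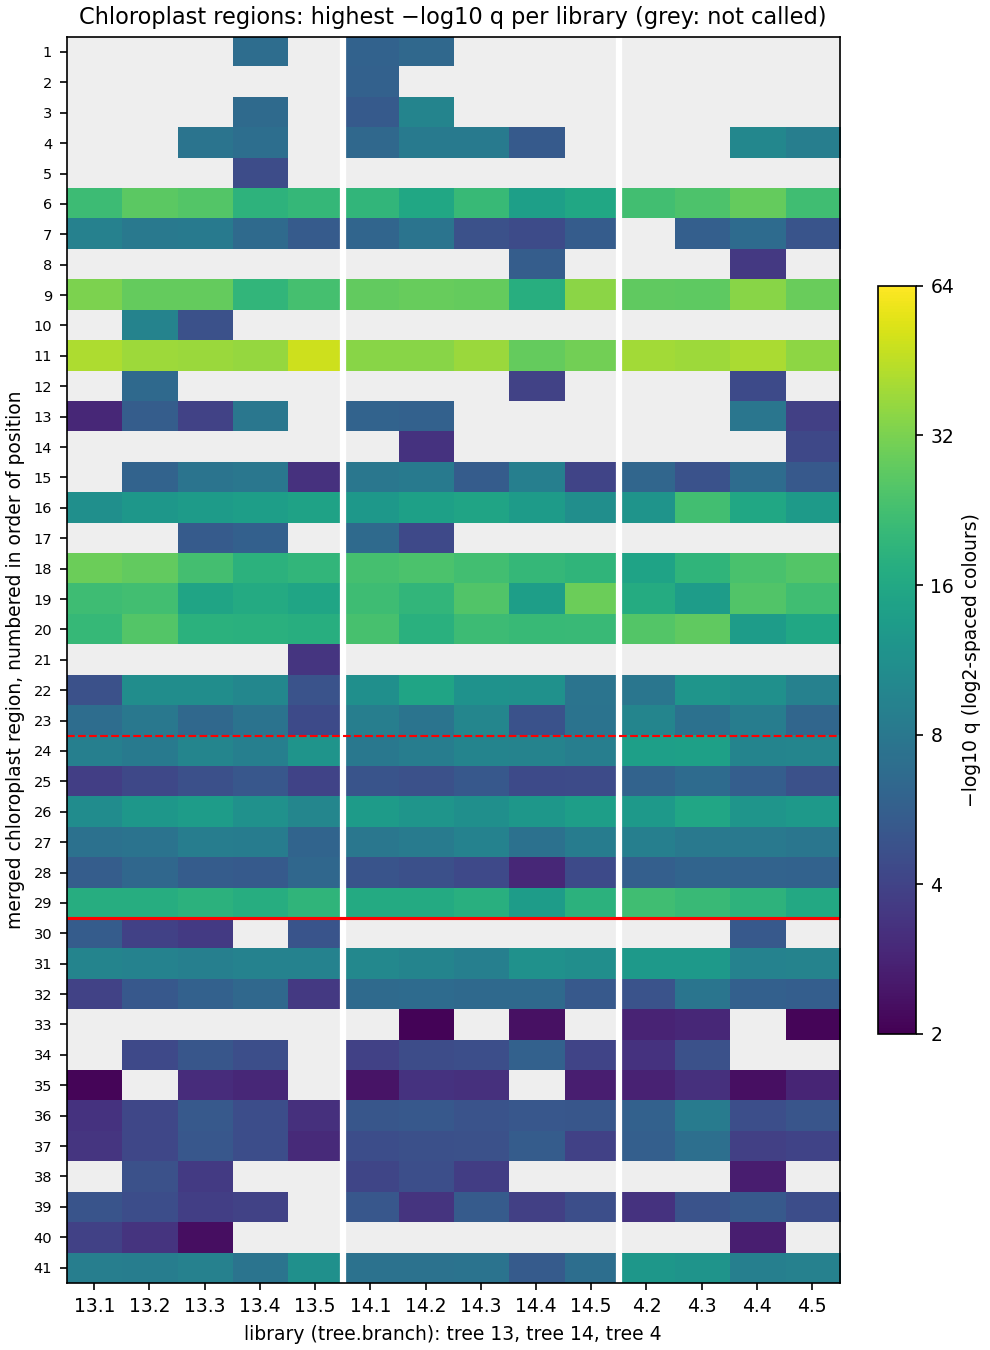
Highest −log10 q of each library (columns, tree 13, tree 14 and tree 4 from left to right) in each of the 41 chloroplast regions (rows, in order of position), with log2-spaced colours and grey where no peak was called. The dashed red line separates the first from the second stretch and the solid red line the second from the third. 20 rows are filled across all 14 libraries, among them all 6 of the second stretch.

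The strongest chloroplast region in nearly every library lay at 34272 to 34961, 689 bp in the first stretch. Its −log10 q was 41.7, 38.6, 37.9, 37.0 and 49.2 in tree 13, 34.7, 34.4, 37.9, 28.2 and 30.8 in tree 14, and 39.7, 38.3, 41.0 and 35.4 in tree 4. The trees overlapped, with 14.4 lowest and 13.5 highest. It was the most significant chloroplast region in 13 of 14 libraries, and the 14 peaks there had starts with an SD of 12.6 bp and ends with an SD of 90.1 bp. Its left edge was the best shared of the 13 regions that were a single peak in every library, and its right edge varied more.

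The exception was 14.5, where the region at 25156 to 25998 was highest. There the −log10 q was 32.5, 28.3, 28.2, 19.5 and 23.0 in tree 13, 27.7, 28.5, 28.2, 17.7 and 35.3 in tree 14, and 27.5, 27.0, 34.4 and 29.0 in tree 4. It was among the 3 most significant chloroplast regions in 13 of 14 libraries, and 14.4 was again lowest.

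In the first stretch, 4 other regions reached median −log10 q values above 20. They were 12076 to 12606 (median 21.1, range 14.2 to 28.4), 63031 to 63649 (22.6, 14.9 to 29.2), 66687 to 67377 (20.7, 13.7 to 29.3) and 68403 to 69004 (20.6, 13.6 to 27.3). The last 3 of these lie within the final part of the stretch, close to each other. The remaining regions of the first stretch called in all 14 libraries were at 54598 to 55306 (median 13.4, range 11.1 to 22.5), 70116 to 70570 (10.96, 4.71 to 15.2) and 71970 to 72252 (7.50, 4.35 to 9.83).

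In the second stretch, the widest chloroplast region spanned 78725 to 80632 (1907 bp). Its −log10 q was 8.98, 8.39, 9.67, 8.97 and 11.98 in tree 13, 7.99, 8.68, 9.50, 9.37 and 8.81 in tree 14, and 14.2, 14.3, 9.50 and 9.69 in tree 4. Values were close to each other except in 4.2, 4.3 and 13.5. The region was 1 peak in 13 libraries and 2 peaks in 14.4, and 1344 of its bases (70.5%) were covered in every library.

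The most significant region of the second stretch lay at its end, at 84602 to 85199, and bordered the longest stretch without peaks. The −log10 q of this region was 17.4, 17.4, 18.6, 17.4 and 19.2 in tree 13, 16.7, 16.6, 17.9, 13.5 and 18.5 in tree 14, and 22.0, 20.9, 18.8 and 16.2 in tree 4. Its right edge was the best shared of the same 13 regions, with an SD of 7.80 bp over the 14 ends. The others of the second stretch were 80812 to 81548 (median 4.73), 81852 to 82847 (12.5), 83108 to 83820 (8.13) and 83986 to 84420 (5.49). The region at 81852 to 82847 was split into 2 or more peaks in 7 libraries.

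In the third stretch, the most significant region was at 113504 to 115123 (1619 bp). It had a −log10 q of 9.52, 9.32, 8.92, 9.28 and 9.34 in tree 13, 10.03, 9.51, 8.87, 11.5 and 11.04 in tree 14, and 12.8, 13.03, 9.25 and 9.46 in tree 4. The mean was 9.27 ± 0.221 in tree 13, 10.2 ± 1.09 in tree 14 and 11.1 ± 2.06 in tree 4 (SD, n = 5, 5 and 4), so the tree 13 branches were the closest to each other. Next to it, 116193 to 116993 was split into 2 peaks in 13 of 14 libraries, all but 4.2, and had a median −log10 q of 5.82. The regions at 123064 to 123780 and 123943 to 124785, 163 bp apart, had medians of 4.99 and 4.53.

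The last region, 128435 to 129426, was a single peak in every library, and 792 of its 991 bp (79.9%) were covered in every library, the highest share of the 20 regions. Its midpoints had an SD of 13.3 bp, the lowest of the 13 regions that were a single peak in every library. Its −log10 q was 8.79, 8.73, 9.21, 7.63 and 11.4 in tree 13, 7.38, 7.38, 7.51, 5.38 and 7.02 in tree 14, and 12.5, 11.95, 8.97 and 9.11 in tree 4. Every tree 14 branch lay below every branch of trees 13 and 4. At 83986 to 84420 it was 5.53, 6.33, 5.45, 5.33 and 6.35 in tree 13, 4.90, 4.66, 4.32, 2.96 and 4.33 in tree 14, and 5.70, 6.07, 6.02 and 5.96 in tree 4. Tree 14 was again below all the others.

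These were 2 of the 20 chloroplast regions (10%) in which the tree 13 values lay wholly above those of tree 14, against 0.133% of the 9764 regions called in all 14 libraries. The reverse was seen in 0 of 20, against 0.0615%. Between trees 13 and 14 and tree 4, 0 of 20 chloroplast regions separated in either direction, against 0% with the first wholly above and 0.0512% wholly below. The count was made after the values were seen and has no test, the chloroplast regions lie on 1 molecule and share its copy number and each library's depth, and −log10 q depends on depth, which was not known. Whether depth or copy number contributed was not tested.

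Within regions called in all 14 libraries, peak midpoints lay near each other, which the joining of overlapping peaks into regions partly fixes. In the 13 of the 20 regions with a single peak in every library, the SD of the 14 peak midpoints was 13.3 to 73.9 bp (median 30.4 bp), and the first and last midpoints were 53.5 to 255 bp apart (median 107 bp). The median SD was 49.5 bp for starts and 52.0 bp for ends. In these 13 regions, 23.3 to 79.9% of the bases of a region (median 43.1%) were covered in every library. Exact coordinates were nearly never shared: among the 91 pairs of libraries, 1 pair had 1 peak of identical coordinates. In the other 7 regions at least 1 library had 2 or more peaks.

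Libraries differed in which regions had their extreme values. Library 4.3 had the highest −log10 q in 9 of the 20 regions, and 13.5 and 14.4 had the lowest in 6 each. Yet 14.4 had a median −log10 q over the 20 regions of 11.5, above all other branches of trees 13 and 14, against 13.3 in 4.3 and 12.6 in 4.2. The remaining libraries lay between 9.25 (13.1) and 10.9 (14.2).

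The 21 regions not called in all libraries were 98 to 386 bp wide, and the highest −log10 q of any library in them was 10.01. Called in 13 libraries were 13241 to 13546 (missing in 4.2), 51485 to 51853 (missing in 13.1) and 126726 to 126989 (missing in 13.5), with median −log10 q of 6.22, 6.28 and 4.55. The region at 120971 to 121357 was called in 11 libraries with a highest −log10 q of 3.33, and 118873 to 119049 in 10. The others were called in 8 or fewer. The regions at 187 to 324 and at 6949 to 7101 were called in the same 3 libraries, 13.4, 14.1 and 14.2. Their −log10 q in these was 6.94, 5.92 and 6.47 at the first and 6.59, 5.33 and 9.60 at the second. The region at 60054 to 60181 was called in these libraries and in 13.3. The paper left branches 13.4 and 14.1 out of its analysis because damage prevented an estimate of their age.

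Regions called in a single library were 3. They were 4665 to 4763 in 14.1 (−log10 q 5.86), 11234 to 11344 in 13.4 (4.47) and 69116 to 69275 in 13.5 (3.40). All lay in the first stretch. The number of the 21 variable regions that a library called was 6, 10, 12, 11 and 4 in tree 13, 12, 13, 7, 8 and 5 in tree 14, and 5, 6, 11 and 8 in tree 4. The trees overlapped, and the library with the shortest list (13.5) called the fewest.

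No chloroplast region was called differently between the stems or between the individuals after adjustment. Tree 13 against tree 14 was compared region by region with Fisher's exact test (two-sided) on the numbers of libraries with and without the call, adjusted by the Benjamini-Hochberg method over the 9042 regions of the whole genome in which 5 against 5 libraries can reach p = 0.05. Of these 5 were on the chloroplast, and 1 had an unadjusted p under 0.05, against 3.04% of all regions tested (0.21% higher in tree 13 and 2.83% higher in tree 14). It was 112842 to 113064, the first region after the longest stretch without peaks, called in 4 of 5 tree 13 libraries and 0 of 5 tree 14 libraries (Fisher's exact p = 0.0476, adjusted p = 1). Its −log10 q was 5.51, 3.88, 3.62 and 4.90 in 13.1, 13.2, 13.3 and 13.5, and it was called in 4.4 at 5.24. With lists of equal length, a −log10 q of at least 10, 50% overlap or peaks of at least 159 bp, 0 chloroplast regions had an unadjusted p under 0.05 in this exact test. Where 500-bp windows replaced regions, 2 chloroplast windows had one, and the share over all windows is not given. With the most significant 50% of each list the region at 112842 to 113064 was called in 1 library and no longer had one. There 83986 to 84420 was called in 5 of 5 tree 13 libraries and 0 of 5 tree 14 libraries (Fisher's exact p = 0.00794, adjusted p = 1), though all 14 full lists called it. Its percentile by −log10 q within the list was 50.7 in 13.4 and 49.5 in 14.2, so this split depends on where the cut falls.

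For trees 13 and 14 against tree 4, 12 chloroplast regions were among the 18615 that could reach p = 0.05, and by this exact test 0 had an unadjusted p under 0.05, against 0.994% of all (0.435% higher in trees 13 and 14 and 0.559% higher in tree 4). The lowest unadjusted value was at 117445 to 117753, called in 2 of 10 libraries of trees 13 and 14 and 3 of 4 of tree 4 (Fisher's exact p = 0.0949, adjusted p = 1). It had the lowest median −log10 q of the 41 regions (2.33), with values of 2.08 in 14.2 and 2.33 in 14.4, against 2.81 in 4.2, 2.95 in 4.3 and 2.1 in 4.5. In neither comparison was any chloroplast region called in every library of one side and none of the other. Over the whole genome 0 regions passed after adjustment in either comparison.

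The number, covered length and list share of chloroplast peaks did not differ detectably between stems or individuals. Tree 13 had 30.8 ± 4.09 peaks and tree 14 had 32 ± 4.06 (SD, n = 5 each), a difference of −1.2 (two-sided exact permutation test, p = 0.667, adjusted over 8 tests 0.667). Covered length was 13392 ± 781 bp in tree 13 and 12090 ± 1247 bp in tree 14, a difference of 1302 bp (exact permutation p = 0.103, adjusted 0.413). The difference was 2135 bp with lists of equal length (exact permutation p = 0.111) and 663 bp with a −log10 q of at least 10 (p = 0.468). The share of the list was 0.132 ± 0.0422% in tree 13 and 0.111 ± 0.0274% in tree 14 (exact permutation p = 0.397, adjusted 0.590). The difference in number turned to 1.2 with lists of equal length, to 0.8 with peaks of at least 159 bp, to 0.25 without 13.5 and to 0.05 without 14.2. That in share, 0.0209 points, was 0.00507 without 13.5, 0.0108 without 14.3, 0.0319 without 13.2 and 0.00937 with lists of equal length, and turned to −0.0171 with a −log10 q of at least 10.

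Trees 13 and 14 together had 31.4 ± 3.89 peaks (n = 10) and tree 4 had 28.5 ± 3.11 (n = 4), a difference of 2.9 (exact permutation p = 0.227, adjusted 0.454). Covered length was 12741 ± 1197 bp in trees 13 and 14 and 13546 ± 654 bp in tree 4, a difference of −806 bp (exact permutation p = 0.226, adjusted 0.454). The difference was −1856 bp with a −log10 q of at least 10 (exact permutation p = 0.0340, adjusted 0.272), −1410 bp with the most significant 50% of each list (p = 0.0669, adjusted 0.212) and −1298 bp with lists of equal length (p = 0.312, adjusted 0.820). The share of the list was 0.121 ± 0.0353% in trees 13 and 14 and 0.109 ± 0.0184% in tree 4 (exact permutation p = 0.516, adjusted 0.590). The difference in number was 1.73 without 4.2, 0.6 with lists of equal length and 0.2 with the most significant 50%, and turned to −1.05 with a −log10 q of at least 10 and to −0.4 with peaks of at least 159 bp. That in share, 0.0129 points, was 0.00465 without 13.5, 0.0220 without 4.3, 0.00469 with lists of equal length and 0.000344 with the most significant 50%, and turned to −0.000501 with a −log10 q of at least 10. These tests miss the threshold, which does not show that the trees are alike.

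Branch-to-branch agreement was measured as the Jaccard index, the bases covered in both libraries of a pair divided by the bases covered in either. On the chloroplast it averaged 0.750 ± 0.0620 over the 91 pairs (SD), with the lowest value for 13.5 and 14.4 (0.559) and the highest for 14.1 and 14.3 (0.863). Pairs share libraries, so the SD over pairs is a description. A pair differed in the calling of 6.99 regions on average, between 1 and 13.

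Agreement within a stem was not separable from that across stems after adjustment. It was 0.736 ± 0.0599 within tree 13 (10 pairs), 0.777 ± 0.0541 within tree 14 (10 pairs), 0.789 ± 0.0484 within tree 4 (6 pairs), 0.735 ± 0.0759 across stems 13 and 14 (25 pairs) and 0.750 ± 0.0539 between individuals (40 pairs). Within-stem pairs of trees 13 and 14 averaged 0.757 and pairs across these stems 0.735, a difference of 0.0213 (one-sided exact permutation of branches over 252 arrangements, p = 0.0397, adjusted over 8 tests 0.317). Without 14.4 the difference was 0.0100 (exact permutation p = 0.183), without 13.3 0.0353 (p = 0.0397), without 13.4 0.0411 (p = 0.00794, adjusted 0.0635) and without both 13.4 and 14.1 0.0348 (p = 0.0286). It was 0.0466 with a −log10 q of at least 10 (exact permutation p = 0.0794), 0.00930 with lists of equal length (p = 0.262) and 0.00783 with the overlap coefficient, the shared bases divided by those of the smaller library (p = 0.119). Pairs within an individual and pairs between individuals averaged 0.750 each, a difference of 0.000119 (exact permutation over 1001 arrangements, p = 0.464, adjusted 0.590). Its sign depended on single libraries: it was negative without any 1 of 13.2, 13.3, 13.4, 14.1, 14.2, 14.3, 4.2 and 4.3, down to −0.0175 without 4.2, and up to 0.0142 without 13.5. It was −0.0100 without both 13.4 and 14.1 and 0.0534 with a −log10 q of at least 10 (exact permutation p = 0.151). Libraries 13.5 and 14.4 agreed least with the others, with mean Jaccard indices of 0.669 and 0.684, and 14.3 agreed most (0.796). The median chloroplast peak width was the largest in 13.5 (518 bp) and the smallest in 14.4 (213.5 bp). Whether width contributed to the index was not tested.

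**Figure D4:**
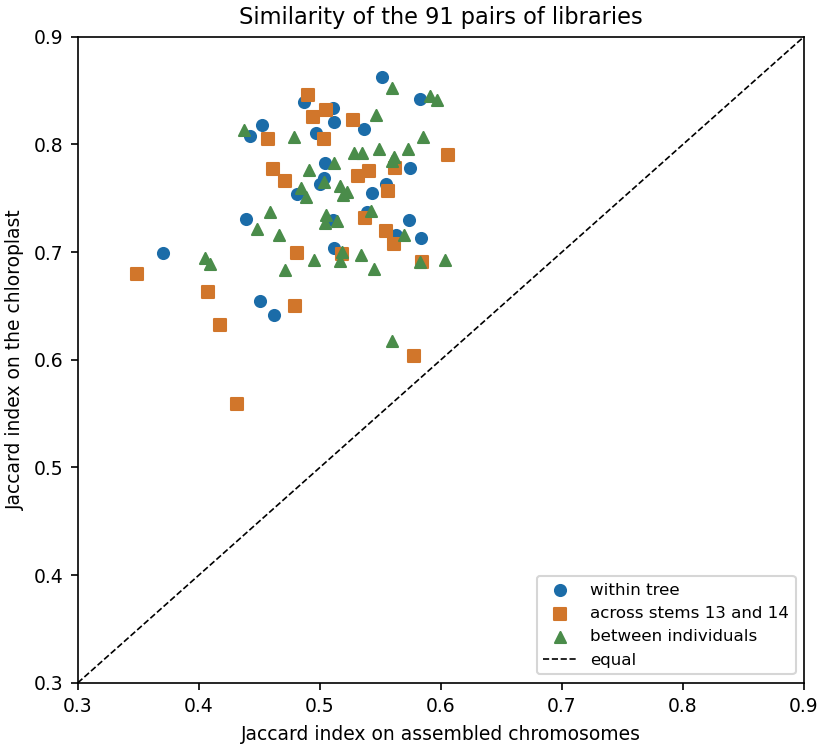
Jaccard index of covered bases on the chloroplast (y axis) against that on the assembled chromosomes (x axis) for the 91 pairs of libraries, 1 point per pair, with the line of equality dashed. All 91 points lie above the line, and pairs within a tree, across stems 13 and 14 and between individuals overlap.

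The chloroplast peaks were more alike between libraries than the chromosome peaks. The Jaccard index on the assembled chromosomes averaged 0.512 ± 0.0534 over the same pairs, and the chloroplast value was the higher in 91 of 91 pairs. The percentage of a library's peaks that lay in regions called in all 14 libraries was 64.7 to 84.0% on the chloroplast (median 74.2%) and 25.7 to 77.0% on the chromosomes (median 37.7%). The chloroplast minus chromosome difference averaged 33.3 percentage points (SD 10.95, range 6.95 to 49.3) and was positive in 14 of 14 libraries (two-sided exact sign-flip permutation test, p = 0.000122, adjusted over 3 tests 0.000122, the smallest value 14 pairs can give). Whether a region is called in all 14 depends on every library, so the 14 differences are not independent and this p-value is a description. The smallest difference was in 13.5, where the chromosomes reached 77.0% in the shortest list.

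Taken over the whole plastome, chloroplast peaks were also more significant and wider within the same list. Per library, the median −log10 q was 6.35 to 9.71 on the chloroplast (median 7.57) and 4.69 to 5.82 on the chromosomes (median 5.36), a mean difference of 2.30 (SD 0.970, range 0.701 to 4.36). By stretch, the median over libraries was 12.1 in the first, 8.75 in the second and 4.60 in the third. In all libraries but 14.4 and 4.3, the third-stretch median lay below the chromosome median of the same list. The median width was 213.5 to 518 bp on the chloroplast (median 296.5 bp) and 180 to 285 bp on the chromosomes (median 214.5 bp), a mean difference of 104 bp (SD 70.1, range 19 to 241 bp). Both differences were positive in 14 of 14 libraries (exact sign-flip permutation test, p = 0.000122 each, adjusted 0.000122). The chromosomes are nuclear and present in few copies per cell while the plastome is present in many, so these differences and that of copy number cannot be told apart.

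**Figure D5:**
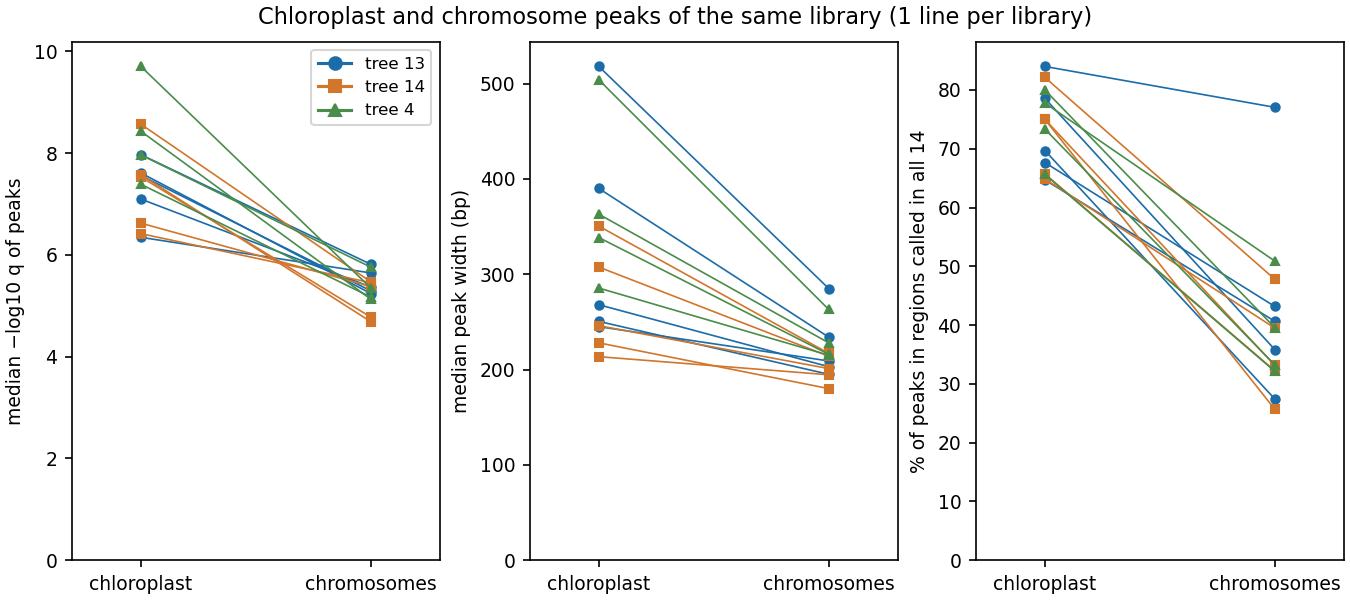
Median −log10 q, median peak width in bp and percentage of peaks in regions called in all 14 libraries, for chloroplast peaks (left of each panel) and chromosome peaks (right), with 1 line per library coloured by tree and axes from 0. Every line falls towards the chromosomes in all 3 panels.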

How the data were processed

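ATAC-seq libraries from leaves were analysed from 1 deposited peak list per library. Per the submitters' processing notes, Trimmomatic 0.36, Bowtie 1.1.1 and MACS2 2.1.2 were used. The sources used here do not give their parameters, the build or any shift of reads. The authors deposited for each peak a score, which for all 428 chloroplast peaks equalled 10 times its −log10 q rounded down, with −log10 p-values and −log10 q-values. Peaks were called per library. Whether starts count from 0 or 1 is not given, and width was end minus start.

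Libraries were grouped by the tree in their titles. The list titled 1.1, whose peak names say tree 4, branch 1, entered no comparison. Peaks of the 14 lists were merged into regions where they overlapped or touched. Groups were compared by exact permutation tests (8 tests), chloroplast and chromosomes by exact sign-flip tests (3), calls by Fisher's exact test over all regions that could reach p = 0.05, and 2 relations by 100000 permutations, each family adjusted by Benjamini-Hochberg. Regions called in all 14 are named in full, the rule requiring the 15 of highest mean percentile within lists. The rule also named regions with an unadjusted Fisher p under 0.05, the 5 strongest of a single library, the 5 widest and the 5 longest stretches without peaks; other regions were named after their values were seen. Members and lists were chosen with earlier results of these data known. Alternatives kept only peaks with a −log10 q of at least 10, the most significant 50% or the most significant 12801 of a list, used 50% overlap, 500-bp windows, the overlap coefficient, means or unplaced scaffolds, or left out branches 13.4 and 14.1 or each library. A minimum width of 159 bp, the largest of the lists' narrowest peaks, was added after the data were seen. Python 3.11.15, pandas 2.3.3, numpy 2.4.6 and scipy 1.17.1 were used, and the tests were tested on simulated data.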

Additional observations from a re-analysis of the deposited data

Results flagged for a closer look

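The chloroplast share of the list in 4.3 was 0.136%, far from the other tree 4 branches, which lay between 0.0979% and 0.101% (gap 0.930 of the range). It was the only such library among 24 groups examined (8 measures in 3 trees), and chance alone marks about 1 in 20 groups. Its list was the shortest of tree 4, at 19837 peaks, with 27 on the chloroplast.

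The list titled 1.1, which was placed in no tree, also held chloroplast peaks. It had 23 of them among 27009 peaks (0.0852%), covering 13862 bp, with a highest −log10 q of 39.2. All 23 lay in the 41 chloroplast regions of the other libraries, and they touched 20 of the 20 chloroplast regions called in all 14. The share of such regions over the whole genome that this list touched is not given. The count is therefore a description and does not set the chloroplast apart.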

How the results depend on the processing

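The 3 differences between chloroplast and chromosome peaks kept their direction and stayed past the threshold in 54 of 54 recomputations. Of 144 recomputations of the 8 comparisons of trees, 127 kept their direction, 17 turned and 0 passed after adjustment. Chloroplast regions called in all 14 libraries numbered 12 with the most significant 50% of each list, 8 with a −log10 q of at least 10, 11 with lists of equal length, 10 with 50% overlap and 36 with 500-bp windows. The shares over all regions under these settings are not given. With a −log10 q of at least 10, the number of peaks in trees 13 and 14 minus tree 4 was −1.05, and the share of the list was −0.0171 points for tree 13 minus tree 14 and −0.000501 for trees 13 and 14 minus tree 4. The number in tree 13 minus tree 14 was 1.2 with lists of equal length and 0.8 with peaks of at least 159 bp, where that of trees 13 and 14 minus tree 4 was −0.4. The similarity difference of individuals was −0.0100 without branches 13.4 and 14.1. The causes were not tested.

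Leaving out each library in turn gave −2.2 to 0.25 peaks for tree 13 minus tree 14 and 1.73 to 4.07 for trees 13 and 14 minus tree 4. Covered length gave 879.6 to 1591 bp and −1050 to −546 bp, the share 0.00507 to 0.0319 and 0.00465 to 0.0220 points, and similarity 0.0100 to 0.0411 for stems and −0.0175 to 0.0142 for individuals. The chloroplast minus chromosome differences were 2.15 to 2.43 in −log10 q, 93.3 to 110 bp in width and 28.7 to 35.8 points in the percentage in regions called everywhere. Chloroplast regions with an unadjusted Fisher's exact p under 0.05 numbered 2 without 13.4 or without 13.5 for stems, and 1 without 4.4 for individuals, and 0 passed after adjustment. The numbers tested and the shares over all regions in these runs are not given, so these counts cannot be set against a genome-wide rate. Regions called in every library were 20 to 22, and the relations had r of 0.172 to 0.554 for number and −0.206 to 0.231 for length.

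With branch number as a replicate block, the similarity difference of stems was 0.0237 (exact permutation p = 0.0625, adjusted 0.413), that in number −1.2 and that in length 1302 bp. The deviations of same-numbered branches of trees 13 and 14 correlated at −0.267 to 0.327, which cannot decide whether these branches share more than a number. Depth is unknown, so a region not called cannot be told from one that lacked reads.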
